A study of Arabidopsis thaliana with 12 samples.

Results

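The 10 genes described here form the core of the plant circadian clock: LHY (AT1G01060), CCA1 (AT2G46830), RVE8 (AT3G09600), PRR9 (AT2G46790), PRR7 (AT5G02810), PRR5 (AT5G24470), TOC1 (AT5G61380), GI (AT1G22770), ELF4 (AT2G40080) and LUX (AT3G46640, listed as PCL1 in the deposited table). They were taken by locus identifier, as 10 of the 33597 named genes counted, and all 10 were among the 18886 genes with enough counts to be tested. Messenger RNA was counted in 12 libraries of Arabidopsis thaliana rosette leaves (leaves 3 and 4), with 3 libraries in each of 4 groups. The groups were Col-0 wild type without salt (mock), Col-0 with 100 mM NaCl for 1 day, and both treatments in line #1 of an ERF34 overexpressor. This is 1 transgenic line, in which the CsVMV promoter drives ERF34, an AP2/ERF transcription factor, fused to GFP at its N-terminus. All leaves were 16 DAE, an age the labels do not spell out, and the records list 3 mM MES at pH 5.8, 22 °C and 16 h light with 8 h dark for every group. Salt leaves were detached and floated, and how mock leaves were handled is not spelled out, so detachment and floating cannot be told apart from NaCl. Replicates are described as independent biological ones, and the labels give neither the hour of collection nor anything else that a replicate number stands for.

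The Arabidopsis clock is a network of transcription factors that repress and activate one another so that their transcripts peak in turn over the day. The MYB factors CCA1 and LHY peak around dawn and repress evening genes, and the pseudo-response regulators PRR9, PRR7, PRR5 and TOC1 follow in that order through the day and repress CCA1 and LHY. At dusk ELF4 and LUX act with ELF3 as the evening complex, which represses PRR9 among others, GI with the F-box protein ZTL sets the turnover of TOC1 and PRR5, and RVE8, a MYB factor related to CCA1, activates evening genes. In leaves this network times photosynthesis, stomatal opening, stress responses and senescence.

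DNA motifs known from clock promoters lie upstream of several of these genes. The windows below are reference sequence of assembly TAIR10.1 from RefSeq, on the strand of the gene, and each holds a motif in capitals with 25 bases on both sides. They are shown as the evening elements (PRR5, TOC1, LUX) and G-boxes (LHY, CCA1, PRR9, PRR7, LUX) found among the 10 genes, both known as clock or light elements of plant promoters. The evening element was searched as AAAATATCT on both strands (its other strand reads AGATATTTT) within 500 bases upstream of the gene start.
PRR5, chr5:8358805-8358863, minus strand: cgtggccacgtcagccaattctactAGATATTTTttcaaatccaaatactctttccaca
PRR5, chr5:8358700-8358758, minus strand: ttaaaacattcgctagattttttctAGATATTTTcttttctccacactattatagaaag
TOC1, chr5:24674787-24674845, plus strand: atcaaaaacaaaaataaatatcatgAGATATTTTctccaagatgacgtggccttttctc
LUX, chr3:17182964-17183022, plus strand: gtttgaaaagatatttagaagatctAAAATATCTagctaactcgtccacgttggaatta

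The G-box CACGTG, which reads the same on both strands, was found upstream of 5 of the 10 genes, among them the dawn genes CCA1 and LHY.
LHY, chr1:37921-37976, minus strand: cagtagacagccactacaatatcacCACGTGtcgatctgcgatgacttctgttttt
CCA1, chr2:19245373-19245428, plus strand: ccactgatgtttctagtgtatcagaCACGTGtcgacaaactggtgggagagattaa
PRR9, chr2:19232338-19232393, plus strand: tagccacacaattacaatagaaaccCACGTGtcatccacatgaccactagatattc
PRR9, chr2:19232410-19232465, plus strand: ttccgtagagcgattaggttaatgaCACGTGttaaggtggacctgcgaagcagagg
PRR7, chr5:642201-642256, minus strand: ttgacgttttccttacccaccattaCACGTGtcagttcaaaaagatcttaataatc
LUX, chr3:17182824-17182879, plus strand: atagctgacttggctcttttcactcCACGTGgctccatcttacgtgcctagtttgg
The evening element was present in 3 of the 10 windows, against 4.44% of 27443 windows of the same length upstream of annotated genes, and the G-box in 5 of 10 against 9.35%. The CCA1-binding site AAAAATCT was present in 3 of 10 against 12.5%, the LUX site GATACG or GATTCG in 4 of 10 against 22.6%, the DRE core ACCGAC or GCCGAC in 2 of 10 against 12.6%, and the GCC box GCCGCC in 1 of 10, RVE8, against 4.12%. Which of these sites ERF34 binds was not examined. An evening element is not itself counted as a CCA1-binding site, since their letters differ. GI held none of these 6 motifs in its window. These matches describe letters in the windows and were not tested against any value below.

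In the TAIR10.1 annotation the morning genes lie at chr1:33365-37871 (LHY), chr2:19245591-19248915 (CCA1), chr3:2946239-2949017 (RVE8) and chr2:19232607-19235179 (PRR9), CCA1 and PRR9 being close together on chromosome 2. The day genes lie at chr5:637681-642030 (PRR7), chr5:8356204-8358546 (PRR5) and chr1:8061751-8067790 (GI). The evening genes lie at chr5:24674963-24678550 (TOC1), chr2:16734294-16734953 (ELF4, a gene of 1 exon) and chr3:17183042-17186959 (LUX). LUX overlaps AT3G46650 on the opposite strand by 1507 bases, and its counts can include reads of that gene if counting did not use strand. None of the other 9 overlaps another annotated gene.

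Wild-type libraries held 14301312 to 18398594 counts in named genes, and overexpressor libraries, all of them shallower, 10425430 to 12704898. ERF34 stood at 2.96 to 16.7 CPM (counts scaled to a common library size with TMM factors) in the 6 wild-type libraries and at 769 to 1082 CPM in the 6 overexpressor libraries. Leaf markers were abundant: 4 mesophyll genes summed to 8742 to 14483 CPM in every library. A list of 7 root, flower and meristem markers summed to 6.89 to 11.3 CPM, with 2 of the 7 at 0 counts in all 12 libraries. Most of that sum is SHR. The flower marker PI was called higher in overexpressor salt than in mock (log2 fold change 4.70, edgeR adjusted p = 0.0406). It had 0, 2.73 and 2.38 CPM there, so the groups overlapped at 0. In wild type the summed mesophyll level was 13416 to 14483 CPM in mock and 8742 to 9844 in salt, and in the overexpressor 13399.6 to 14344 in mock and 11478 to 13529 in salt. The fall in the overexpressor was mostly RCA, the only one of the 4 called there (log2 fold change -0.53, edgeR adjusted p = 0.0409). LHCB2.1 had a log2 fold change of -0.17, while RBCS1A and CAB3 went up, by 0.09 and 0.14. The summed level of 5 epidermal markers went from 59.7 to 113 down to 34.3 to 44.8 CPM in wild type, and that of 3 vascular markers from 655 to 796 down to 520.2 to 578. In the overexpressor the epidermal sum was 76.2 to 94.5 CPM in mock and 51.4 to 67.9 in salt, and the vascular sum, most of which is SUC2, 652 to 707 and 498 to 630.4. The vascular marker SULTR2;1 went the other way in both genotypes. Its log2 fold change in salt was 0.31 in wild type (edgeR adjusted p = 0.181) and 0.90 in the overexpressor (0.00851). Most of the epidermal sum is ATML1. Its means were 72.9 and 31.9 CPM in wild-type mock and salt, and 73.0 and 48.9 in the overexpressor. MYB60 and GL2 also had lower means in salt. FAMA did not, with log2 fold changes of 0.13 in wild type and 0.23 in the overexpressor (edgeR adjusted p = 0.631 and 0.476). PDF1 had too few counts to be tested. The part of these shifts in the clock gene differences below was not tested. In whole leaves fewer cells of a type, less RNA per cell and a change in single marker genes cannot be told apart.

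**Figure D1:**
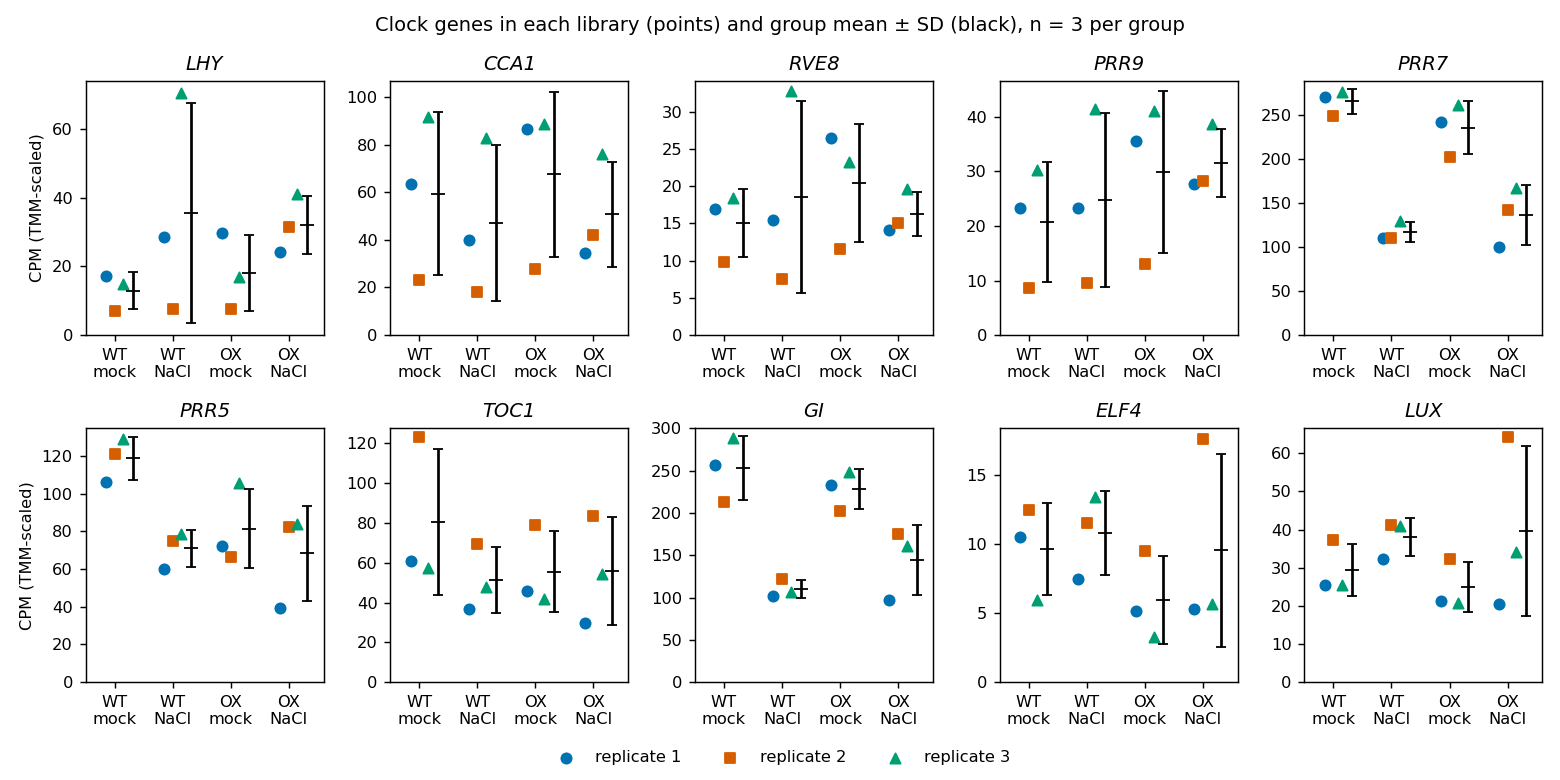
The level of each clock gene is plotted per library (CPM, linear axis from 0) for wild-type (WT) and overexpressor (OX) leaves in mock and NaCl, with the marker shape giving the replicate number and the black bar the mean ± SD of 3 libraries. PRR7 and GI are lower in salt in both genotypes, while LHY, CCA1, RVE8 and PRR9 spread within groups, with replicate 2 lowest in 3 of the 4 groups.

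Levels differed widely between the genes. Per kilobase of annotated exon, in wild-type mock leaves, PRR7 stood highest at 82.2 CPM per kb (range 77.3 to 85.6, n = 3), followed by PRR5 at 70.8 (63.3 to 76.8) and GI at 58.7 (49.4 to 66.9). TOC1 had 28.6 CPM per kb (20.5 to 43.7), CCA1 21.8 (8.50 to 33.6), ELF4 15.6 (9.61 to 20.1) and PRR9 9.70 (4.07 to 14.1). LUX had 7.53 CPM per kb (6.51 to 9.55), RVE8 6.41 (4.20 to 7.82) and LHY 3.78 (2.02 to 5.002). Among neighbours in this order, PRR7 and PRR5 did not overlap, nor did GI and TOC1, and all other neighbouring pairs overlapped. Exon length counts every annotated transcript of a gene, 9 of them for RVE8 and 8 for LHY against 1 for PRR5, TOC1, GI and ELF4, so the per-length level of a gene with many isoforms is a low estimate.

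PRR7, PRR5 and GI, which peak between midday and dusk, were lower in salt-treated than in mock leaves of wild type, and the other 7 genes did not pass the test. The comparison asks which transcripts change in a leaf after 1 day in NaCl. PRR7, which represses CCA1 and LHY, had 271, 249.8 and 277 CPM in mock replicates 1, 2 and 3 and 111, 110.3 and 130.2 CPM in salt. Every salt library was below every mock library, and the means were 266 ± 14.2 and 117 ± 11.3 CPM (SD, n = 3), a 2.27-fold fall (log2 fold change -1.18, SE 0.18, edgeR adjusted p = 0.000642 over all genes tested). GI, the large nuclear protein that joins the clock to flowering, had 257, 213 and 288 CPM in mock and 102, 122 and 107 CPM in salt. These groups did not overlap either, and GI fell 2.29-fold (log2 fold change -1.20, SE 0.21, adjusted p = 0.00138).

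PRR5 had 106, 121 and 129 CPM in wild-type mock and 59.9, 74.7 and 78.6 CPM in salt. The groups did not overlap and the fall was 1.67-fold (log2 fold change -0.74, SE 0.27, adjusted p = 0.0498). This call is at the threshold: it held in 2 of 12 fits that each left out 1 library, with adjusted p from 0.00822 to 0.143, and was lost with RLE scaling (0.0541) and with no filter on low counts (0.0513). GI lost its call in 1 fit, without replicate 3 of every group (adjusted p = 0.0582), and PRR7 kept its call in every alternative run.

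**Figure D2:**
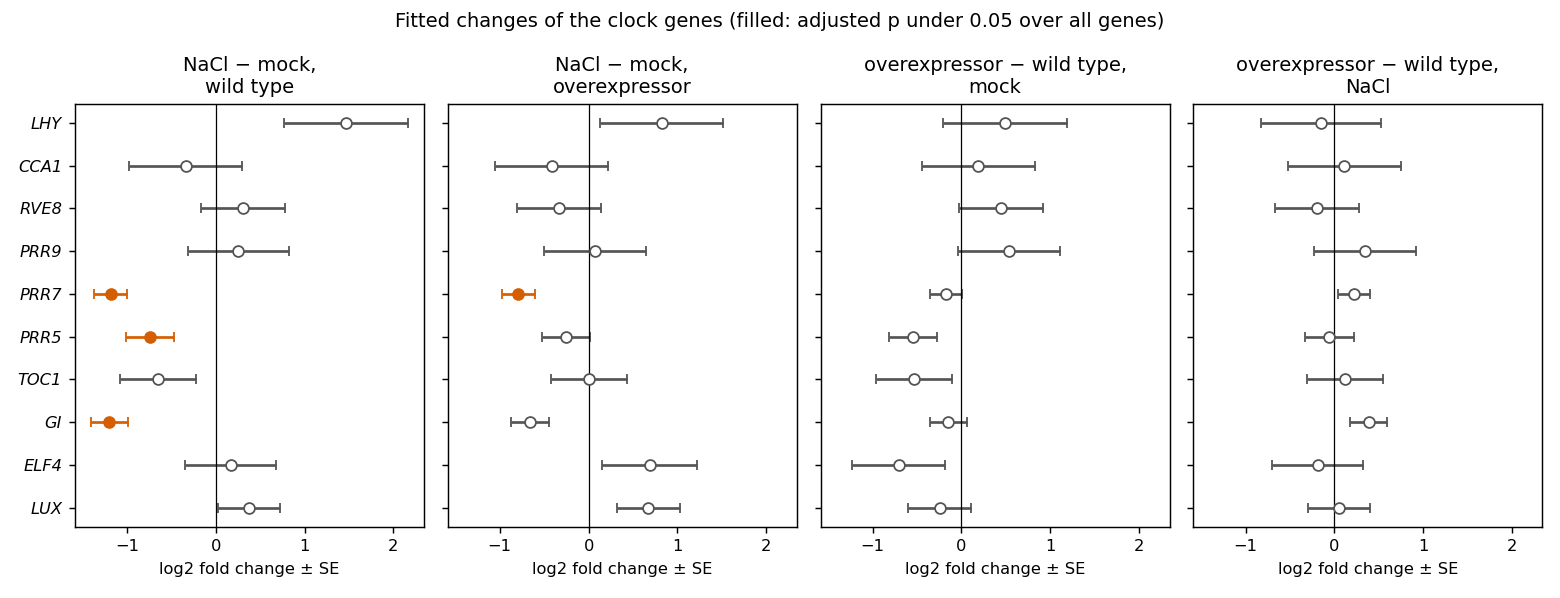
Fitted log2 fold changes of the 10 clock genes (points) with SE (bars) in the 4 comparisons, filled where the adjusted p over all genes was under 0.05. In wild type PRR7, PRR5 and GI are filled at -1.18, -0.74 and -1.20, in the overexpressor PRR7 alone at -0.79, and no gene is filled between genotypes.

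The dawn genes moved less in relation to their spread. LHY had 17.1, 6.90 and 14.7 CPM in wild-type mock and 28.7, 7.65 and 70.6 CPM in salt. Each salt library was above the mock library of the same number, the groups overlapped, and the log2 fold change of 1.47 (SE 0.70) did not pass (adjusted p = 0.117). Without wild-type salt replicate 2, the lowest library in salt, the LHY fold change was 1.94 and passed (adjusted p = 0.0251), and without replicate 2 of every group it was 1.64 (adjusted p = 0.0426). Without wild-type salt replicate 3, the highest library, it was 0.49 (adjusted p = 0.582), and without replicate 3 of every group 0.60 (0.653), so that 1 library sets most of its size. CCA1, its close homolog, had 63.6, 23.1 and 91.5 CPM in mock and 40.1, 18.2 and 82.6 in salt, lower in each pair of equal number (log2 fold change -0.34, SE 0.64, adjusted p = 0.698). How many of all genes keep a single direction across these pairs was not counted.

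TOC1, the evening regulator whose loss shortens the period, had 60.9, 123 and 57.6 CPM in wild-type mock and 36.5, 69.5 and 47.8 in salt. Every salt library was below the mock library of its number although the groups overlapped, and the log2 fold change of -0.65 (SE 0.43) did not pass (adjusted p = 0.248). With the replicate number as a block, TOC1 did pass (log2 fold change -0.61, adjusted p = 0.0195), and the count of clock genes called went from 3 to 4. The block fits the same replicate terms to all 4 groups, also to overexpressor salt, where numbers were not taken to pair with wild-type salt. Its SE and p-values rest on that shared pattern. RVE8, PRR9, ELF4 and LUX had log2 fold changes of 0.31, 0.26, 0.17 and 0.37, with adjusted p from 0.422 to 0.814.

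The 3 of 10 clock genes called, all lower, stand beside 41.4% of all genes tested that were called in this comparison and 21.1% that were called lower. With the block, 4 of 10 stand beside 51.1%. Groups without overlap were found for 3 of 10 clock genes and for 52.3% of all genes. The median log2 fold change was -0.09 over the 10 genes and -0.01 over all genes tested.

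In the overexpressor, PRR7 was lower in salt, and no other clock gene passed. PRR7 had 243, 203 and 262 CPM in mock and 99.7, 142 and 168 in salt, without overlap, with means of 236 ± 30.2 and 136 ± 34.3 CPM (n = 3). It fell 1.73-fold (log2 fold change -0.79, SE 0.18, edgeR adjusted p = 0.0155). The call was lost without overexpressor mock replicate 1 (adjusted p = 0.0508) or 3 (0.0625), when only the overexpressor libraries were fitted (0.0618), and without replicate 1, 2 or 3 of every group (0.124, 0.0641 and 0.114).

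GI had 233.5, 202 and 248 CPM in overexpressor mock and 96.8, 175 and 161 in salt. Each salt library was below each mock library, the log2 fold change was -0.66 (SE 0.21) and the adjusted p was 0.0518. GI passed with the replicate block (log2 fold change -0.68, adjusted p = 0.0338), with RLE scaling (0.0466), with upper quartile scaling (0.0312) and with DESeq2 (0.0169). Among the 12 fits that left out 1 library, it passed without overexpressor salt replicate 2 (0.0472). It also passed without wild-type mock replicate 2 (0.05 after rounding), and in no other of these fits. Their log2 fold changes ran from -0.82 to -0.44 and their adjusted p from 0.0472 to 0.154. The highest adjusted p over all alternatives was 0.263. PRR5 had 72.2, 66.7 and 105.6 CPM in mock and 39.4, 82.2 and 83.8 in salt, overlapping ranges with replicate 1 of salt the lowest (log2 fold change -0.25, SE 0.27, adjusted p = 0.549).

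LHY had 29.7, 7.61 and 16.9 CPM in overexpressor mock and 24.1, 31.4 and 41.0 in salt (log2 fold change 0.83, SE 0.69, adjusted p = 0.432). All 3 salt libraries were above mock replicates 2 and 3, and mock replicate 1 lay within the range of salt. CCA1, RVE8, PRR9 and TOC1 had log2 fold changes of -0.42, -0.33, 0.07 and 0.01. Within pairs of equal number, LHY, CCA1 and TOC1 kept no single direction here, unlike in wild type. ELF4 and LUX, the evening complex genes, had 0.69 (SE 0.53) and 0.67 (SE 0.36), with adjusted p of 0.391 and 0.215. In overexpressor salt, replicate 2 had 17.6 CPM of ELF4 and 64.3 CPM of LUX, the highest value of both genes over all 12 libraries.

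Of the 10 genes, 1 was called in the overexpressor, and it was lower, beside 18.3% of all genes called and 8.55% called lower. With the block 2 of 10 were called, beside 28.2%. Groups did not overlap for 2 of 10 clock genes and for 37% of all genes. The median log2 fold change was -0.12 over the 10 genes and 0.02 over all genes tested.

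No clock gene passed the test between genotypes, which asks whether raised ERF34 goes with other levels of the clock transcripts. In mock leaves 0 of 10 were called by edgeR, beside 0.101% of all genes, with adjusted p from 0.744 to 0.984. PRR5 was the 1 gene of 10 whose mock groups did not overlap, beside 15.7% of all genes: all overexpressor libraries (66.7 to 105.6 CPM) lay below all wild-type libraries (106 to 129), with a log2 fold change of -0.54 (SE 0.27, adjusted p = 0.744). Within pairs of equal replicate number, LHY, RVE8 and PRR9 were higher in the overexpressor in 3 of 3 pairs, and PRR7, PRR5, TOC1, GI, ELF4 and LUX were lower in 3 of 3. How many of all genes keep a single direction in 3 of 3 pairs was not counted. The clock genes also vary together across libraries, so they are not separate observations, and no shift of the set was tested. The fitted log2 differences included 0.53 (SE 0.57) for PRR9, -0.54 (SE 0.43) for TOC1 and -0.71 (SE 0.53) for ELF4. With the replicate number as a block they were 0.55 (SE 0.30) for PRR9, -0.50 (SE 0.18) for TOC1, -0.56 (SE 0.20) for PRR5 and -0.76 (SE 0.39) for ELF4. None of the 10 was called with the block either, and the adjusted p of PRR5 was then 0.317 and that of TOC1 0.324. At an unadjusted p under 0.05 the count was 0 of 10 in mock and 0 of 10 in salt, and DESeq2 also called 0 of 10 in both.

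In salt leaves 0 of 10 were called, beside 4.39% of all genes, and none had groups without overlap, beside 25.9%. The largest difference in relation to its error was GI, with 102, 122 and 107 CPM in wild type and 96.8, 175 and 161 in the overexpressor (log2 fold change 0.39, SE 0.21, adjusted p = 0.305). Replicate numbers were not taken to pair libraries between genotypes in salt, so directions within pairs are not given. The interaction, which asks whether the salt response differs between genotypes, called 0 of 10 clock genes and 0% of all genes. Its estimates, response in the overexpressor minus response in wild type on the log2 scale, were 0.66 (SE 0.60) for TOC1, 0.54 (SE 0.30) for GI, 0.52 (SE 0.73) for ELF4 and 0.49 (SE 0.38) for PRR5. They were -0.64 (SE 0.97) for LHY and -0.64 (SE 0.67) for RVE8. The adjusted p of GI was 0.475. The fall of PRR7 called in both genotypes had an interaction of 0.39 (SE 0.26, adjusted p = 0.573). DESeq2 called 0 of 10 clock genes for the interaction too, and 0 of 10 had an unadjusted p under 0.05 in edgeR.

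The spread within groups followed the replicate number, and in 3 of the 4 groups the dawn genes and TOC1 followed it in opposite directions. In overexpressor salt, replicate 1 was instead the lowest library for all 10 clock genes. CCA1 had 23.1, 18.2 and 27.6 CPM in replicate 2 of wild-type mock, wild-type salt and overexpressor mock, while replicates 1 and 3 of those groups ranged from 40.1 to 91.5 CPM. TOC1 had its highest library in replicate 2 in 4 of 4 groups, at 123, 69.5, 78.7 and 83.4 CPM against 29.5 to 60.9 CPM in all other libraries. LUX was likewise highest in replicate 2 in 4 of 4 groups, and ELF4 in 3 of 4, the exception being wild-type salt.

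LHY, CCA1, RVE8, PRR9 and PRR7 were lowest in replicate 2 in 3 of 4 groups. The exception for all 5 was overexpressor salt. CCA1, PRR9, PRR7 and PRR5 were highest in replicate 3 in 4 of 4 groups, a pattern found in 4.36% of all genes tested, and TOC1 and LUX in replicate 2 in 4 of 4, found in 6.46% of all genes.

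**Figure D3:**
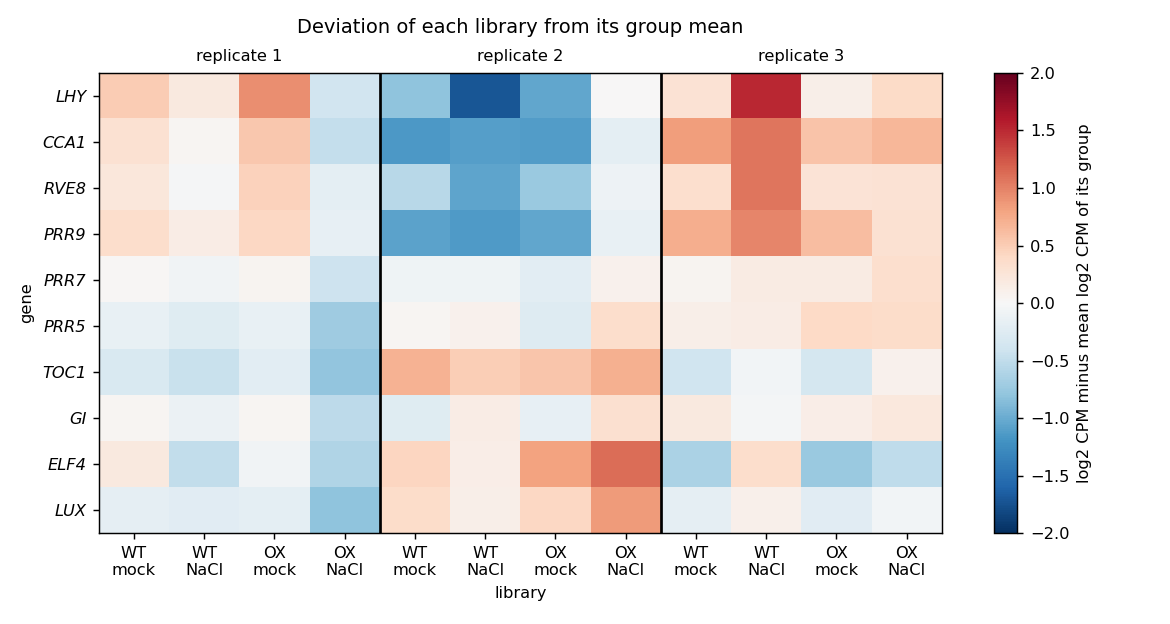
Each cell is the log2 CPM of a clock gene in 1 library minus the mean log2 CPM of that library's group (colour scale from -2 to 2), with libraries ordered by replicate number. In replicate 2 of wild-type mock, wild-type salt and overexpressor mock, LHY, CCA1, RVE8 and PRR9 have values of -1.70 to -0.56, while TOC1 has values of 0.49 to 0.70 in replicate 2 of every group.

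The replicate number was tested as a term of the same model, a test chosen after this pattern had been seen, so it describes the pattern and is no independent evidence of it. It was called for 3 of the 10 clock genes, beside 5.81% of all genes tested. For CCA1 the log2 difference was -0.99 between replicates 2 and 1 and 0.65 between replicates 3 and 1 (edgeR adjusted p = 0.0384). For PRR9, the first pseudo-response regulator of the day, the same differences were -0.98 and 0.48 (adjusted p = 0.0401), and for TOC1 they were 1.04 and 0.26 (adjusted p = 0.0213). LHY (adjusted p = 0.165), RVE8 (0.0855), LUX (0.0755) and ELF4 (0.140) did not pass. PRR7 and GI, the genes with the largest falls in salt, had replicate-number terms of at most 0.27 on the log2 scale, with adjusted p of 0.259 and 0.527.

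Some other clock and output genes carried the same term. It was called for 4 of 11 MYB and LNK genes, the relatives and partners of RVE8: RVE3, RVE6, LNK1 and LNK3 had log2 differences between replicates 2 and 1 of -2.10, -0.69, -0.41 and -1.005 (adjusted p from 0.0196 to 0.0348). PRR3, a pseudo-response regulator that stabilises TOC1, was called as 1 of 10 other genes listed with the evening genes, with a difference of 1.05 (adjusted p = 0.0368). Among 15 output genes it was called for GRP7, an RNA-binding protein (difference 1.08, adjusted p = 0.0237), CDF3, a DOF factor of flowering (-1.39, 0.0170), and CAT3, a catalase known to peak in the evening (0.67, 0.0362). None of 12 clock modulators and none of 9 light-input genes was called for the term, with 2 and 3 at an unadjusted p under 0.05. These counts stand beside 5.81% of all genes tested that were called for the term, a share to which 1 of 10 is near.

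Ratios within a library, chosen after these values had been seen, show the pattern without any scaling between libraries. The log2 ratio of CCA1 to TOC1 was 0.06, -2.41 and 0.67 in wild-type mock replicates 1, 2 and 3 and 0.13, -1.93 and 0.79 in wild-type salt. In the overexpressor it was 0.92, -1.51 and 1.08 in mock and 0.22, -0.99 and 0.48 in salt. Replicate 2 was the lowest in every group and the only number with more TOC1 than CCA1 CPM.

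The 2 dawn genes, by contrast, differed in their ratio with salt. The log2 ratio of CCA1 to LHY was 1.89, 1.75 and 2.63 in wild-type mock and 0.48, 1.25 and 0.23 in wild-type salt. In the overexpressor it was 1.54, 1.86 and 2.39 in mock and 0.52, 0.42 and 0.89 in salt. Every mock library, at 1.54 or more, was above every salt library, at 1.25 or less, in both genotypes. Neither gene alone passed the salt test in either. Mock and salt groups without overlap were found for 52.3% of single genes in wild type and 37% in the overexpressor. For ratios of 2 genes no such share was counted. The ratio was chosen after these values had been seen, is a description and was not tested.

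**Figure D4:**
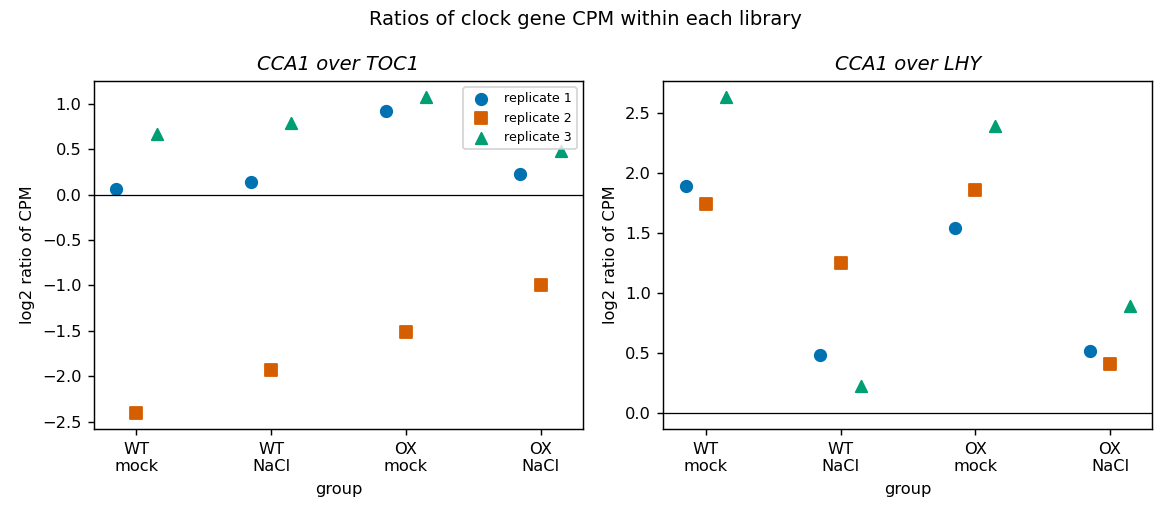
The log2 ratio of CCA1 to TOC1 CPM (left) and of CCA1 to LHY CPM (right) in each library, by group, with the marker giving the replicate number. On the left, replicate 2 lies between -2.41 and -0.99 and all other libraries above 0, and on the right, mock libraries lie at 1.54 to 2.63 and salt libraries at 0.23 to 1.25.

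After removal of group means, the clock genes fell into sets that varied together across the 12 libraries, which share replicate numbers. Pearson's r of log2 CPM deviations was 0.98 for LHY with RVE8, 0.98 for CCA1 with PRR9 and 0.91 for CCA1 with LHY. It was 0.92 for TOC1 with LUX and 0.80 for TOC1 with ELF4, and 0.87 for PRR7 with PRR5 and 0.84 for PRR5 with GI. CCA1 and TOC1 had an r of -0.56. These are descriptions over 12 libraries, of which 3 in each group share 1 mean.

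The gene closest to each clock gene was searched among 14402 other genes with a mean of at least 5 CPM. For CCA1 and PRR9 the closest gene in deviations from group means was LNK3 (r = 0.989 and 0.995), a member of the family that partners with RVE8. LHY was closest to AT4G06598 in levels (0.990) and in deviations (0.989). RVE8 was closest to AT5G42760 in levels (0.962) and to SQP1 in deviations (0.979), and PRR9 and CCA1 in levels to PK1 (0.960) and AT3G27700 (0.976).

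PRR7 was closest to AT1G52870 in levels (r = 0.998) and to INV-E, an alkaline/neutral invertase, in deviations (0.985). GI was closest to AT3G28690 in levels (0.985) and to UBC1, a ubiquitin-conjugating enzyme, in deviations (0.966). PRR5 was closest to AGT3 (0.957) and HDA08 (0.991), and TOC1 to ERD15 (0.969) and AT4G24730 (0.985), in the same order. ELF4 was closest to COR27 in levels (0.918), a clock-controlled gene known to repress TOC1 and PRR5, and to AT2G43260 in deviations (0.928). LUX was closest to AT4G33690 (0.952) and AT3G04010 (0.979). With 14402 candidates and 12 libraries, 1% of genes reached an r of 0.698 to 0.963 with the clock gene in levels. In deviations 1% of genes reached 0.811 to 0.941, with 0.941 for CCA1 and 0.932 for PRR9. A high value alone is thus common in both.

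Other genes of the clock in wild-type salt were mostly lower where they were called. Of 11 MYB and LNK genes, 1 was higher and 2 were lower. RVE7, a MYB factor, had 31.6, 11.6 and 29.9 CPM in mock and 8.74, 2.53 and 9.53 in salt, without overlap (log2 fold change -1.81, edgeR adjusted p = 0.0150). LNK1 fell by 0.72 on the log2 scale (adjusted p = 0.0255). RVE2 had 12.2, 5.35 and 6.13 CPM in mock and 20.2, 7.77 and 146 in salt, and its rise of 2.88 (SE 1.02, adjusted p = 0.0426) was 0.83 (adjusted p = 0.415) without wild-type salt replicate 3 and did not pass with the replicate block (0.0980).

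Of 10 further genes listed with the evening genes, 3 were lower in wild-type salt and none higher. This evening list also holds F-box genes and homologs of ELF4, and when its genes peak was not examined. ELF4-L2, a homolog of ELF4, had 25.04, 17.7 and 23.0 CPM in mock and 12.0, 8.94 and 10.5 in salt, and fell by 1.06 on the log2 scale (adjusted p = 0.000404). ELF3, the scaffold of the evening complex, fell by 0.59 (adjusted p = 0.0258), while its partners ELF4 and LUX did not pass. LKP2, an F-box relative of ZTL, fell by 0.46 (adjusted p = 0.0360). None of 12 modulators passed in edgeR, and 2 had an unadjusted p under 0.05.

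Among the photoreceptors and light-signalling genes that set the clock, 3 of 9 were lower in wild-type salt. CRY1, a blue-light receptor, had 358, 311 and 342 CPM in mock and 160.3, 176 and 185 in salt, and fell by 0.96 (adjusted p = 0.00210). PHYA, a far-red receptor, fell by 0.99 (adjusted p = 0.00769) and CRY2 by 0.48 (adjusted p = 0.0487). Among 15 outputs, CAT2, PIF4 and GRP8 fell by 1.23, 1.03 and 0.75 (adjusted p = 0.0110, 0.0130 and 0.0428). CAT2 is a catalase, PIF4 a growth-promoting bHLH factor and GRP8 an RNA-binding protein. CDF2, a DOF repressor of flowering, rose by 1.57 (adjusted p = 0.0270), and by 0.84 (adjusted p = 0.139) without wild-type salt replicate 3.

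In each list the share called was below the 41.4% of all genes, and the median log2 fold change was -0.46 for the MYB and LNK genes, -0.49 for the evening list, -0.07 for the modulators, -0.25 for the outputs and -0.34 for light input, against -0.01 over all genes. With the replicate block the counts called were 5 of 11, 4 of 10, 2 of 12, 6 of 15 and 6 of 9, beside 51.1% of all genes, which the light-input genes exceeded. The calls of ELF4-L2, CAT2, PHYA and CRY1 held in 12 of 12 fits that left out 1 library, those of RVE7 and PIF4 in 11, CDF2 in 9, LNK1 and ELF3 in 8, LKP2 in 6, GRP8 in 5, RVE2 in 4 and CRY2 in 2.

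In overexpressor salt the called genes of these lists were LKP2, CAT2 and CRY1, which fell by 0.60, 1.04 and 0.68 on the log2 scale (edgeR adjusted p = 0.0246, 0.0455 and 0.0273) and which had all been called lower in wild type. That is 0 of 11 MYB and LNK genes, 1 of 10 genes of the evening list, 0 of 12 modulators, 1 of 15 outputs and 1 of 9 light-input genes, beside 18.3% of all genes. With the block these counts were 3, 3, 1, 2 and 1, beside 28.2% of all genes. Their calls held in 8, 5 and 8 of 12 fits that left out 1 library.

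Between genotypes, none of the 57 listed genes passed in mock, in edgeR or DESeq2, and 0 had an unadjusted p under 0.05, beside 0.101% of all genes called in mock. In salt 2 of the 57 were called, beside 4.39% of all genes. ELF4-L2 was higher in the overexpressor, at 16.0, 15.6 and 17.6 CPM against 12.0, 8.94 and 10.5 in wild type, without overlap (log2 fold change 0.64, edgeR adjusted p = 0.0430). FIO1, a modulator whose loss lengthens the period, had 8.67, 6.60 and 9.03 CPM against 5.67, 5.002 and 4.15, also without overlap (log2 fold change 0.72, adjusted p = 0.0411). Both calls held in 3 of 12 fits that left out 1 library. None of the 57 passed the interaction in edgeR or DESeq2, and 1 had an unadjusted p under 0.05.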

How the data were processed

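The authors deposited whole-number counts per gene for 12 strand-specific poly(A) RNA libraries, prepared from 2 µg of total RNA (RIN over 7.8), per the labels' protocols. TopHat, Cufflinks and TAIR10 are named without versions in the submitters' processing notes, and the strand setting of the counting is not given in the sources used here. A second deposited table of scaled values was not used. The 7 entries without a gene name (0.382% to 0.897% of a library's counts) were left out. Counts were fitted in R 4.3.3 with edgeR 4.0.16 (TMM, filter on low counts by group, robust quasi-likelihood F test, 1 model of 4 groups with 8 residual degrees of freedom, common biological coefficient of variation 0.249). P-values were adjusted by Benjamini-Hochberg over 18886 genes and called under 0.05, and SE was taken as the size of the log2 fold change divided by the root of F. With 3 libraries a group, p-values measure the spread between these libraries. The script was tested on simulated counts.

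The clock genes and lists were chosen with earlier results of these data known. The text names the 10 clock genes, ERF34, from each list per comparison up to 4 called genes of largest change whose higher group reached 1 CPM, and the gene closest to each clock gene. Correlations used log2 CPM with a prior count of 2. Replicate numbers were taken to pair libraries within a comparison where every same-number correlation of deviations from group means was over 0.1. It was 0.306 to 0.401 for salt in wild type, 0.132 to 0.273 for salt in the overexpressor and 0.270 to 0.730 for genotype in mock, and -0.0248 to 0.527 for genotype in salt, where numbers were not taken to pair. Of 36 correlations between unlike numbers over all pairs of groups, 4 were also over 0.1. They reached 0.324 for genotype in salt and 0.215 for genotype in mock. With the number as a block, 6 residual degrees of freedom were left. The block terms were shared by all 4 groups, overexpressor salt included, and the calls of TOC1 and GI with the block rest on this. Tried as alternatives were RLE and upper quartile scaling, DESeq2 1.42.0, no filter, the block, only the groups compared, and fits without 1 library or 1 replicate number. The test of the replicate-number term, the ratios and the alternatives for listed genes other than the 10 were added after the data had been seen. Motifs, positions and exon lengths come from TAIR10.1, matched by locus identifier for all 86 listed genes, and no coordinate comes from the deposited counts.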

Additional observations from a re-analysis of the deposited data

How the results depend on the processing

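Of 1040 fold changes of the 10 clock genes under alternatives, 1009 kept their direction and side of the threshold or changed sign without a call, 22 lost a call, 9 gained one and 0 reversed a called direction. In wild type the count of clock genes called for salt, 3 of 10, ranged from 1 to 3 when libraries were left out, and was 1 without replicate 3 of every group. In the overexpressor the count of 1 was 2 with RLE scaling, 2 with upper quartile scaling, 2 with DESeq2, 2 with the replicate block and 0 when only the groups compared were fitted, and ranged from 0 to 2 when libraries were left out. The block changed no other call of a clock gene than TOC1 in wild type and GI in the overexpressor, and for genotype in salt it called 0 of 10.

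Counts over all genes moved more. For salt in wild type 7814 were called, and 5158 and 3127 without replicates 1 and 3 of every group. For salt in the overexpressor 3449 were called, 5327 with the block, 2227 with only the groups compared, 1519 to 3634 without 1 library, and 837, 1966 and 75 without replicates 1, 2 and 3 of every group. For genotype in mock 19 were called, 196 with DESeq2, 4 with only the groups compared, 3 to 18 without 1 library, and 0, 2 and 1 without each replicate number. For genotype in salt 829 were called, 1763 with DESeq2, 2344 with the block, 13 with only the groups compared, 45 to 1017 without 1 library, and 154, 4 and 1 without each replicate number. The interaction called 0 in edgeR (2580 at an unadjusted p under 0.05), 5 with RLE scaling, 8 with no filter, 379 with the block, 658 with DESeq2 and 0 to 73 without 1 library. The cause of these changes was not tested, and fits without a replicate number hold 2 libraries a group. Counting depth limits ELF4 most among the clock genes, with 41 to 239 counts a library.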
